A study of Mus musculus with 9 samples.

Results

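The genes described here are 36 genes of T cells and cytotoxic lymphocytes, out of 54532 genes in the deposited table. They were selected by gene name, with earlier results of these data known, so the choice was not blind to the values reported here. All 36 were found in the table, and 20 of them passed the filter on low values (at least 1 FPKM in at least 3 of the 9 libraries), as did 14645 genes in all. FPKM is the number of fragments counted for a gene, scaled to its length and to the depth of the library. Levels of different genes can be compared on it as far as the lengths used hold. The lengths equalled the exonic bases in the GENCODE M21 annotation for 33 of the 36 genes. They were shorter for Cd5 (2069 against 4928 bases), Cd6 (3404 against 7968) and Ubash3a (3328 against 11239). The FPKM of these genes depend on that choice of length. RNA was sequenced from mouse skin biopsies, all labelled as wild type, with 3 libraries in each of 3 groups. The control group was healthy skin, the bleomycin group received bleomycin, and the nitrate group received bleomycin together with nitrate, which the series title gives as topical. Bleomycin breaks DNA and causes fibrosis in mouse skin, which makes it a model of systemic sclerosis. Nitrate is an anion from which tissue can form nitrite and nitric oxide. The sources used here did not state doses, times, strain, sex, age or how many mice stood behind a library. The p-values therefore reflect the spread among these libraries, which may be technical.

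T cells recognise antigen with a receptor made of paired variable chains, alpha and beta in most T cells and gamma and delta in others, and the chains signal through the CD3 proteins. CD4 and CD8 are coreceptors that bind the presenting molecules and bring the kinase Lck to the receptor, after which Zap70 and the adaptor Lat pass the signal on. Healthy mouse epidermis holds a resident population of gamma delta T cells, the dendritic epidermal T cells, and many other skin T cells carry alpha beta receptors. Natural killer cells and cytotoxic T cells share a killing machinery of perforin and granzymes, and the title of the series concerns CD4 T cells that carry the IL-33 receptor ST2.

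The 9 libraries held 15804050 to 18352592 reads in the table. Marker genes of skin were present in every library, with the basal keratin gene Krt5 at 395.9 to 1422 FPKM and the collagen gene Col1a1 at 740.5 to 3048 FPKM. Genes of other skin cells differed between the same groups. With bleomycin 3 of 6 dermal fibroblast genes fell and 0 rose (Col1a1 -1.53 ± 0.23, limma difference of log2(FPKM + 1) ± standard error, adjusted p = 0.00886), with all 6 estimates below 0, and 2 of 6 keratinocyte genes rose, Krt14 (2.15 ± 0.41, adjusted p = 0.0189) and Krt1 (2.48 ± 0.57, adjusted p = 0.0353). All 4 estimates were below 0 for each of the fat cell, skeletal muscle and endothelial lists, and 0 of these genes were called. The part of these differences in the values of the T cell genes was not tested. Libraries within a group differed too: the summed level of 16 genes of the growing hair follicle was 7.42, 501.9 and 2440 FPKM in control 1, 2 and 3, 58.2, 1697 and 4148 FPKM in bleomycin 1, 2 and 3, and 9235, 2029 and 13207 FPKM in nitrate 1, 2 and 3. Control 1 and bleomycin 1 were lowest, and results that changed without them are named below. The labels gave no sequencing batch.

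T cell genes were low in this tissue. The mean level was at least 1 FPKM for 14 of the 36 members in control skin, 21 in bleomycin skin and 18 in nitrate skin, and 5 members were listed at 0 in at least 1 library. The summed level of the 36 members was 47.2 to 57.7 FPKM in control, 95.4 to 119.7 FPKM in bleomycin and 70.2 to 84.2 FPKM in nitrate libraries, and the 3 ranges did not overlap. Trbc2, Tcf7 and Bcl11b made up 38.3 to 42.6 FPKM of the sum in nitrate libraries, and without these 3 genes the sum was 30.6 to 33.7 FPKM in control, 57.2 to 73.6 in bleomycin and 27.7 to 45.8 in nitrate libraries, so that nitrate and control overlapped. The mean log2(FPKM + 1) over the 36 members, 0.94 to 1.04 in control, 1.35 to 1.62 in bleomycin and 0.98 to 1.22 in nitrate libraries, overlapped in the same way. In such bulk tissue, fewer cells of a type and less RNA per cell cannot be told apart.

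**Figure D1:**
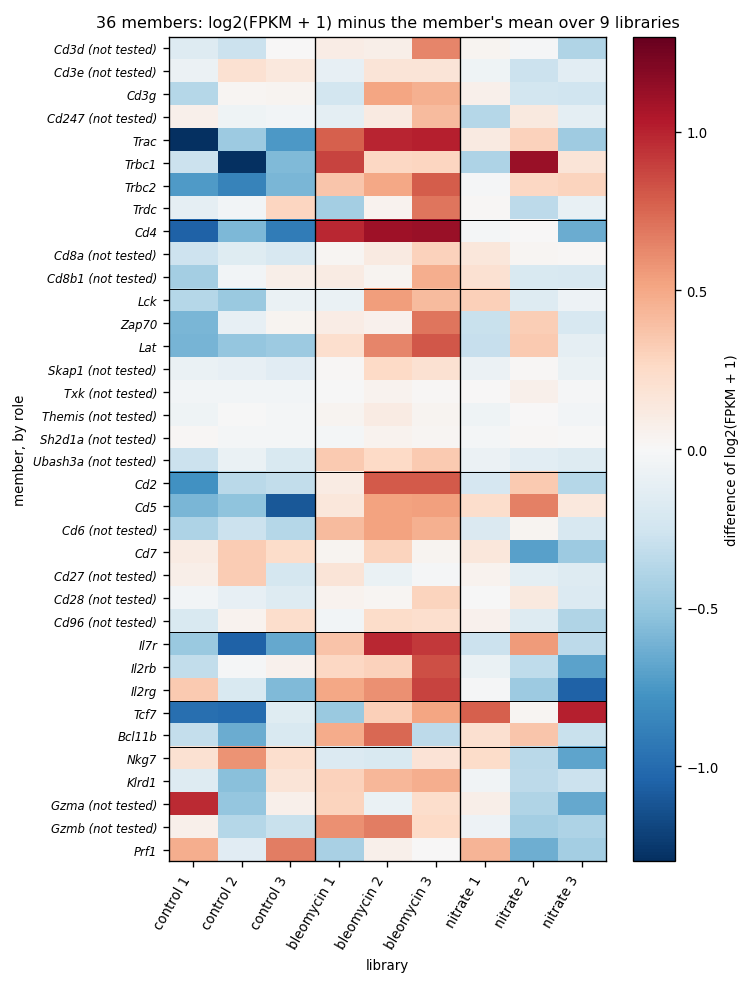
Rows are the 36 members grouped by role, columns the 9 libraries, and colour gives log2(FPKM + 1) minus the member's mean over the 9 libraries. The bleomycin columns are red for Cd4, Trac and Trbc2, while the rows of Cd3e, Cd7 and Prf1 show no such block.

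The sequences of the beta chain constant genes Trbc1 and Trbc2 are shown first because they bear on how their values can be read. The beta chain of a T cell receptor comes from 1 of these genes, and their reads can be told apart only where the sequences differ. In the annotated transcripts (GENCODE M21, which uses the mm10 assembly), the first exon of 375 bases differed at 1 position, with an identical run of 259 bases, whereas exon 3 of 107 bases differed at 15 positions. Over the aligned transcripts 602 of 691 bases were identical (87.1%). The last 150 bases of the first exon and all of exon 3 follow, plus strand, 5′ to 3′, with the bases that differ between the genes in capitals.
Trbc1 first exon, chr6:41538443-41538592: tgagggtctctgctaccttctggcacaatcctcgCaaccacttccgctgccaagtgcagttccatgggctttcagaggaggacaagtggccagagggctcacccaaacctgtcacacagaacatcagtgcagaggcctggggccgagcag
Trbc2 first exon, chr6:41546955-41547104: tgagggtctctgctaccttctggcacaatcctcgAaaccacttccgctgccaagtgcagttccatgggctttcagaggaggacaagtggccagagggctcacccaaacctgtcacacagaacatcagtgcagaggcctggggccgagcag
Trbc1 exon 3, chr6:41539229-41539335: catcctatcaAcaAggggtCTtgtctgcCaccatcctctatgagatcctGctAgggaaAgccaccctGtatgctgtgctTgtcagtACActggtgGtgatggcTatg
Trbc2 exon 3, chr6:41547772-41547878: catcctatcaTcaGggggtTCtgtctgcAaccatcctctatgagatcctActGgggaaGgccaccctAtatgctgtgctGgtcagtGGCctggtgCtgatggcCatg
The sources used here did not state how reads that match both genes were counted, so the single values of Trbc1 and Trbc2 are uncertain.

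The first comparison, bleomycin with control skin, asks what the drug changed. The receptor chain genes Trac and Trbc2, the coreceptor gene Cd4, the adaptor gene Lat and the surface receptor genes Cd2, Cd5 and Il7r rose, and no member was called lower. Of the 20 members tested, 7 rose and 0 fell at an adjusted p under 0.05 (limma on log2(FPKM + 1), Benjamini-Hochberg over 14645 genes), where 8.43% of all genes tested were called, 4.74% higher and 3.69% lower. Cd4, Zap70, Lat, Cd2 and Cd5 reached 1 FPKM in no control library, and Cd4, Lat, Cd2 and Cd5 were among the 7 called, so the count over the tested members was partly fixed by the filter. The 7 became 4 without control 2, 3 without control 3, bleomycin 2 or bleomycin 3, and 2 without both control 1 and bleomycin 1. The median difference of the 20 was 0.74 against 0.01 over all genes tested. Over all 36 members, whatever their level, 21 were higher in every bleomycin library than in any control library and 1 was lower, where 11.1% and 10.1% of the 32197 genes with a read were. Of the 20 that passed the filter, 12 were higher and 1 was lower in this way, where 18.4% and 17.3% of 14645 genes were. Without the filter 8 of 36 members were called higher, where 1.27% of 32197 genes were, and in a fit of voom to recovered reads of genes with a mean of at least 10 reads, added after the data were seen, 9 of 33 were, where 3.86% of 16766 genes were. Each fold change below is limma's difference of log2(FPKM + 1) with its standard error, a scale that understates the change of genes near 1 FPKM.

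Among the receptor complex genes, 5 of 8 were tested and 2 rose, Trac and Trbc2. Trac (chr14, gene of the alpha chain constant region) was at 0.14, 1.34 and 0.923 FPKM in the control libraries, 4.53, 5.43 and 5.52 in the bleomycin libraries and 2.51, 2.98 and 1.35 in the nitrate libraries. Every bleomycin library lay above every control and nitrate library, and the rise was called (1.83 ± 0.29, adjusted p = 0.0102). Its reads were few, 38, 248 and 118 summed over the 3 libraries of each group in that order, and without both control 1 and bleomycin 1 the adjusted p was 0.0537. Trbc2, the second beta constant gene and the highest member in all 3 groups, stood at 9.45, 8.51 and 10.5 FPKM in the control libraries, 21.3, 23.5 and 28.9 in the bleomycin libraries and 16.2, 19.9 and 20.3 in the nitrate libraries. It rose (1.28 ± 0.14, adjusted p = 0.00435), and the groups did not overlap. Trbc1 was at 4.37, 1.35 and 3.38 FPKM in the control libraries, 11, 6.86 and 6.89 in the bleomycin libraries and 3.93, 13.2 and 6.31 in the nitrate libraries. Its bleomycin libraries were all higher than its control libraries, but the spread was wide and the difference was not called (1.25 ± 0.42, adjusted p = 0.108).

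The CD3 chains and the delta chain differed less. Cd3e, a chain that every T cell receptor needs at the surface, was at 0.513, 0.831 and 0.761 FPKM in the control libraries, 0.481, 0.792 and 0.792 in the bleomycin libraries and 0.534, 0.321 and 0.451 in the nitrate libraries. Its control and bleomycin ranges overlapped nearly completely, and the estimate without the filter was -0.01 ± 0.14. Cd3g was at 1.02, 1.66 and 1.67 FPKM in the control libraries, 1.22, 2.72 and 2.6 in the bleomycin libraries and 1.73, 1.22 and 1.17 in the nitrate libraries (0.35 ± 0.23, adjusted p = 0.356). Its groups overlapped. Cd3d, at 0.685, 0.557 and 0.887 FPKM in the control libraries, 1.01, 0.986 and 1.94 in the bleomycin libraries and 0.931, 0.872 and 0.434 in the nitrate libraries, was higher in each bleomycin library than in any control library, with an estimate of 0.42 ± 0.20 without the filter (adjusted p = 0.37). Cd247, which encodes the zeta chain, was at 0.626, 0.491 and 0.518 FPKM in the control libraries, 0.426, 0.682 and 1.06 in the bleomycin libraries and 0.205, 0.697 and 0.424 in the nitrate libraries. Those groups overlapped, and 3007 of the 5329 exonic bases of Cd247 lie opposite exons of Pou2f1 (mean 1.3 FPKM), whose reads cannot be told apart if strand was not used in counting. Trdc, the delta chain constant gene, was at 1.1, 1.22 and 1.76 FPKM in the control libraries, 0.682, 1.34 and 2.7 in the bleomycin libraries and 1.3, 0.805 and 1.13 in the nitrate libraries. Its ranges overlapped in all 3 comparisons, and bleomycin skin did not differ by test from control (0.06 ± 0.27, adjusted p = 0.909).

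Among the coreceptors, Cd4 had the largest change of all tested members. It is on chr6 and stood at 0.389, 0.915 and 0.528 FPKM in the control libraries, 4.67, 5.17 and 5.23 in the bleomycin libraries and 1.82, 1.88 and 0.834 in the nitrate libraries. The bleomycin libraries lay close together and far above both other groups, and the mean went from 0.611 ± 0.272 to 5.02 ± 0.307 FPKM (SD, n = 3). The rise (1.92 ± 0.20, adjusted p = 0.00387) kept its call in 20 of 20 alternatives that tested it, with adjusted p from 0.00182 to 0.0388. Cd8a, the alpha chain of CD8, was far lower, at 0.036, 0.114 and 0.0791 FPKM in the control libraries, 0.27, 0.349 and 0.53 in the bleomycin libraries and 0.375, 0.27 and 0.26 in the nitrate libraries. All control libraries lay below all others, but no library reached 1 FPKM and it was not tested with the filter. In the voom fit Cd8a was higher in bleomycin (log2 ratio 2.26 ± 0.57, adjusted p = 0.0455), while without the filter on FPKM it was not called (adjusted p = 0.146). Its reads summed to 14, 72 and 61 in control, bleomycin and nitrate. Cd8b1, the beta chain, was at 0, 0.321 and 0.427 FPKM in the control libraries, 0.455, 0.389 and 0.879 in the bleomycin libraries and 0.551, 0.184 and 0.177 in the nitrate libraries, with overlapping groups.

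**Figure D2:**
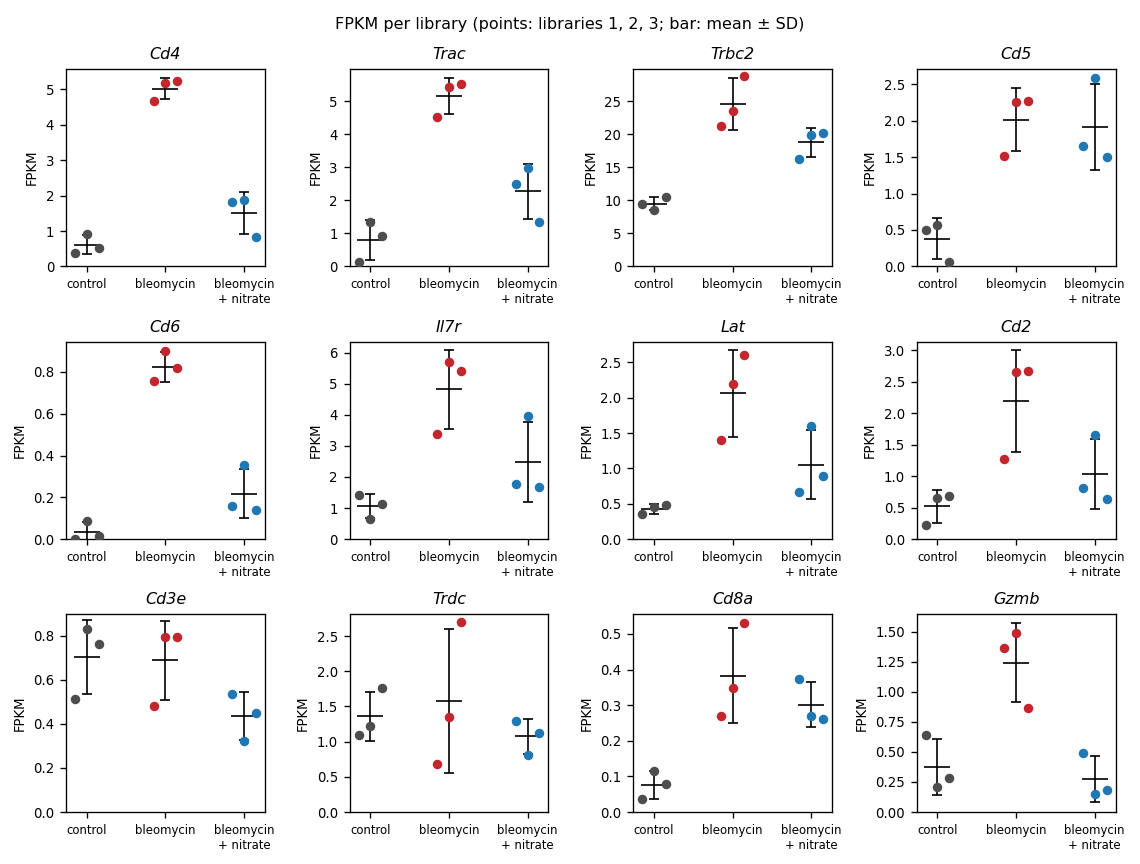
Each panel shows the FPKM of 1 member in the 9 libraries (points) with the group mean and SD (bars). The bleomycin points of Cd4, Trac and Cd6 lie above all others, while those of Cd3e and Trdc overlap the other groups.

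Within libraries, ratios of FPKM set the members against each other; they are given without a test, since an exact permutation test of 3 against 3 libraries cannot give a two-sided p under 0.1. The level of Cd4 was 0.693 to 1.1 times that of Cd3e in control libraries, 6.52 to 9.71 times in bleomycin libraries and 1.85 to 5.86 times in nitrate libraries. These 3 ranges did not overlap. Ratios over the other CD3 chains were not taken. Mean FPKM in control and bleomycin was 0.702 and 0.689 for Cd3e, but 0.71 and 1.31 for Cd3d and 1.45 and 2.18 for Cd3g. Trbc2 over Cd3e was 10.2 to 18.4 in control, 29.7 to 44.2 in bleomycin and 30.4 to 61.9 in nitrate libraries, so the treated groups overlapped each other and not the control. Trac over Trdc was 0.127 to 1.1 in control, 2.04 to 6.63 in bleomycin and 1.2 to 3.7 in nitrate libraries. The ratio of alpha to delta constant genes was thus higher in every treated library than in any control library. The gap between control and nitrate was narrow and rested on few reads. Trac had 2, 21 and 15 reads in control 1, 2 and 3 and 43, 51 and 24 in nitrate 1, 2 and 3. Cd4 over Cd8a was 6.68 to 10.8 in control, 9.87 to 17.3 in bleomycin and 3.21 to 6.97 in nitrate libraries, with nitrate below bleomycin in every library and overlap with control.

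**Figure D3:**
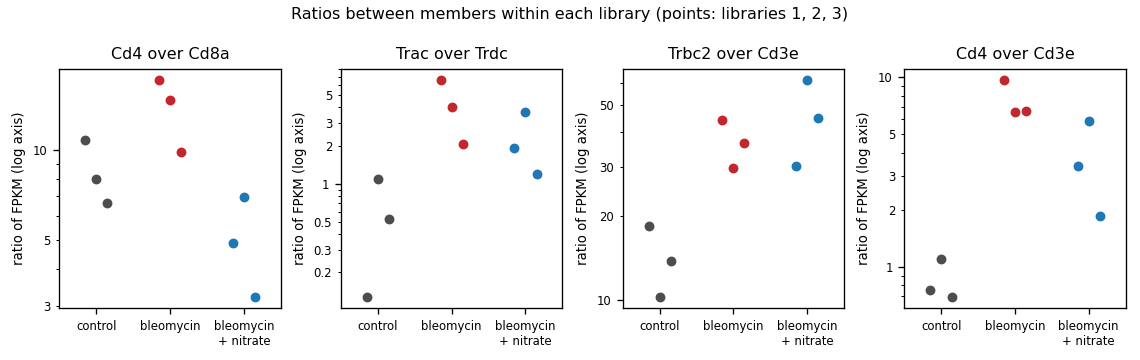
Ratios of FPKM between 2 members within each library, on a log axis, for control, bleomycin and nitrate (points are libraries). Cd4 over Cd3e separates the 3 groups, and Trac over Trdc and Trbc2 over Cd3e separate control from both treated groups. For Trac over Trdc the gap between control and nitrate is narrow.

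Of the 8 genes of signalling close to the receptor, 3 were tested and 1 rose. Lat, the membrane adaptor that Zap70 phosphorylates, was at 0.355, 0.451 and 0.478 FPKM in the control libraries, 1.4, 2.19 and 2.6 in the bleomycin libraries and 0.67, 1.6 and 0.893 in the nitrate libraries. Bleomycin and control did not overlap, and Lat rose (1.08 ± 0.21, adjusted p = 0.0213). The call was lost without control 1, 2 or 3 (adjusted p = 0.0618, 0.0747 and 0.0567), without bleomycin 2 or 3 (adjusted p = 0.0637 and 0.0766) and without both control 1 and bleomycin 1 (adjusted p = 0.0787). The kinase genes Lck (0.60 ± 0.21, adjusted p = 0.12) and Zap70 (0.50 ± 0.26, adjusted p = 0.262) were not called. Ubash3a, a negative regulator of receptor signalling, was not tested with the filter and stood at 0, 0.143 and 0.0518 FPKM in the control libraries, 0.535, 0.451 and 0.528 in the bleomycin libraries and 0.147, 0.0984 and 0.079 in the nitrate libraries. Its bleomycin libraries lay above all others, and it was called higher without the filter (0.50 ± 0.09, adjusted p = 0.0376) and in the voom fit (log2 ratio 3.47 ± 0.79, adjusted p = 0.0325). Skap1, an adaptor for integrin activation, Txk, a Tec family kinase, Themis, needed in thymic selection, and Sh2d1a, the adaptor SAP, were all at most 0.387 FPKM in every library. Txk was listed at 0 in all 3 control libraries and had 24 reads in each treated group.

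Of the 7 surface receptors, 3 were tested and 2 rose. Cd5, which dampens receptor signalling and marks T cells and some B cells, was at 0.506, 0.575 and 0.0556 FPKM in the control libraries, 1.51, 2.26 and 2.27 in the bleomycin libraries and 1.66, 2.59 and 1.5 in the nitrate libraries. Every treated library lay above every control library, and Cd5 rose with bleomycin (1.14 ± 0.22, adjusted p = 0.0191). This call was lost without control 3 (adjusted p = 0.0525), bleomycin 2 (adjusted p = 0.0586) or bleomycin 3 (adjusted p = 0.0695), and without both control 1 and bleomycin 1 (adjusted p = 0.0768). Cd2, an adhesion receptor of T and natural killer cells, was at 0.225, 0.649 and 0.694 FPKM in the control libraries, 1.27, 2.65 and 2.67 in the bleomycin libraries and 0.814, 1.66 and 0.634 in the nitrate libraries. It rose (1.05 ± 0.27, adjusted p = 0.0471), the weakest of the 7 calls. The call was lost in 12 of 20 alternatives, among them without control 1, 2 or 3 (adjusted p = 0.12, 0.117 and 0.0861), bleomycin 2 or 3 (adjusted p = 0.132 and 0.15), nitrate 1 (adjusted p = 0.0642), both control 1 and bleomycin 1 (adjusted p = 0.0933), and the filter (adjusted p = 0.0948).

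Cd6, a relative of Cd5 on T cells, stayed below 1 FPKM and was not tested with the filter. It was at 0, 0.0874 and 0.0169 FPKM in the control libraries, 0.757, 0.899 and 0.816 in the bleomycin libraries and 0.16, 0.353 and 0.139 in the nitrate libraries. Its 6 reads in the control libraries stood against 144 in bleomycin and 41 in nitrate, and its bleomycin libraries lay above all others. Without the filter it was called higher in bleomycin (0.82 ± 0.11, adjusted p = 0.0174), and the voom fit called it too (log2 ratio 4.86 ± 0.78, adjusted p = 0.0105). Cd7, an immunoglobulin family receptor of T and natural killer cells, had the highest level of this role in control skin (4.04 to 4.88 FPKM) and was not called (-0.10 ± 0.21, adjusted p = 0.783). The costimulatory receptor genes Cd27 and Cd28 and the adhesion receptor gene Cd96 were below 1 FPKM in every library, and only Cd28 of these did not overlap between bleomycin (0.387 to 0.667 FPKM) and control (0.207 to 0.331 FPKM).

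All 3 cytokine receptor genes were tested and 1 rose. Il7r, the receptor chain for interleukin 7, which T cells and innate lymphoid cells need to survive, was at 1.43, 0.638 and 1.13 FPKM in the control libraries, 3.37, 5.68 and 5.4 in the bleomycin libraries and 1.79, 3.97 and 1.68 in the nitrate libraries. It rose (1.49 ± 0.28, adjusted p = 0.0187), and bleomycin lay above control in every library. The call was lost without control 2 or 3 (adjusted p = 0.0757 and 0.0528), bleomycin 2 or 3 (adjusted p = 0.0568 and 0.0674), and both control 1 and bleomycin 1 (adjusted p = 0.0636). Il2rb, which takes part in the receptors for interleukins 2 and 15, was at 1.33 to 2.01 FPKM in control, 2.5 to 4.18 in bleomycin and 0.797 to 1.74 in nitrate libraries (0.56 ± 0.22, adjusted p = 0.142 for bleomycin over control). Il2rg, the common gamma chain of several interleukin receptors, was at 2.51 to 5.59, 6.37 to 8.55 and 1.52 to 4.15 FPKM (0.80 ± 0.30, adjusted p = 0.132). Both were higher in every bleomycin library than in any other library, and neither passed the test.

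The transcription factor genes were among the most highly expressed members and had no call. Tcf7, which acts in T cell development and memory, was at 3.13 to 6.42 FPKM in control, 4.91 to 10.8 in bleomycin and 7.44 to 15.7 in nitrate libraries (0.83 ± 0.36, adjusted p = 0.182 for bleomycin over control). Bcl11b, which fixes T cell identity and is also expressed in keratinocytes, was at 4.96 to 7.17, 6.37 to 14.6 and 6.63 to 11 FPKM (0.68 ± 0.29, adjusted p = 0.177).

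Of the 5 killing genes, 3 were tested and 0 were called. Prf1, which encodes the pore former perforin, was at 1.7, 0.76 and 2.07 FPKM in the control libraries, 0.451, 1.03 and 0.944 in the bleomycin libraries and 1.64, 0.254 and 0.427 in the nitrate libraries (-0.45 ± 0.32, adjusted p = 0.407). Nkg7, a granule membrane protein of cytotoxic cells, was at 2.65, 3.77 and 2.71 FPKM in the control libraries, 1.81, 1.77 and 2.61 in the bleomycin libraries and 2.74, 1.49 and 0.977 in the nitrate libraries (-0.40 ± 0.24, adjusted p = 0.323). Nkg7 was the 1 member lower in every bleomycin library than in any control library, and neither difference was called. Klrd1, which encodes the natural killer receptor chain CD94, was at 1.33, 0.789 and 1.93 FPKM in the control libraries, 2.2, 2.52 and 2.61 in the bleomycin libraries and 1.53, 1.07 and 1.15 in the nitrate libraries. Its bleomycin libraries lay above all others without passing the test (0.58 ± 0.19, adjusted p = 0.0977). Of the granzyme genes, neither tested with the filter, Gzma was at 2.28, 0.177 and 0.743 FPKM in the control libraries, 1.04, 0.574 and 0.958 in the bleomycin libraries and 0.758, 0.271 and 0.0522 in the nitrate libraries. Control 1 held the highest value of Gzma and its groups overlapped. Gzmb was at 0.638, 0.207 and 0.28 FPKM in the control libraries, 1.37, 1.49 and 0.869 in the bleomycin libraries and 0.493, 0.152 and 0.183 in the nitrate libraries, with every bleomycin library above all others and an adjusted p of 0.104 without the filter (0.71 ± 0.18).

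**Figure D4:**
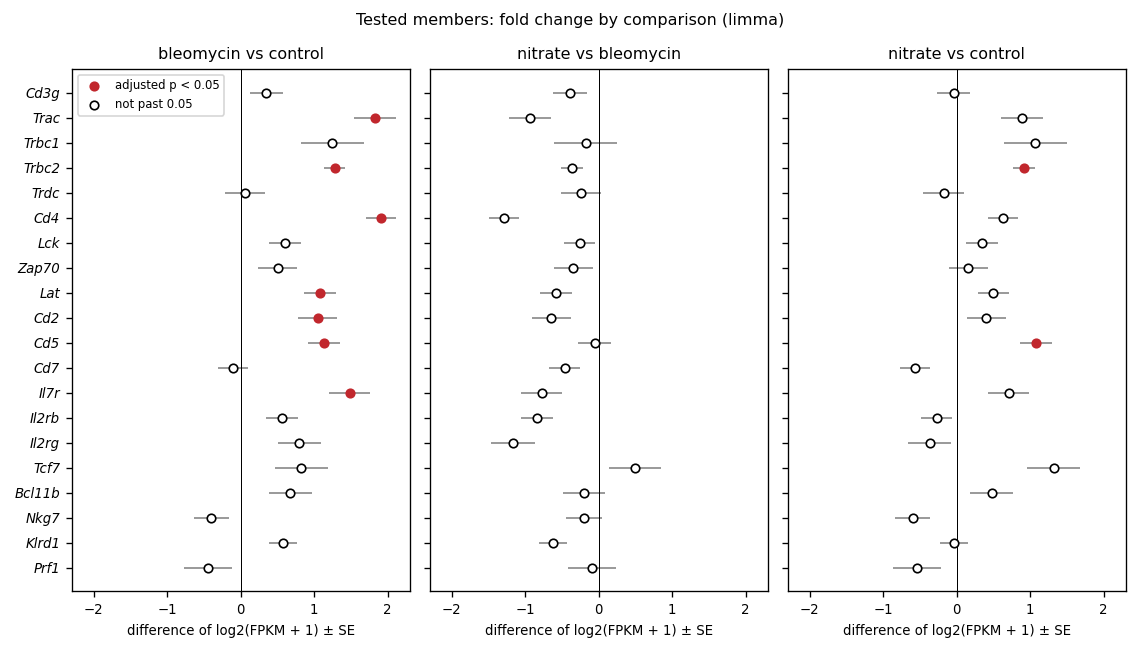
Differences of log2(FPKM + 1) ± standard error for the 20 tested members in the 3 comparisons (limma); filled points passed an adjusted p of 0.05. In bleomycin over control 7 members passed, in nitrate over bleomycin 0, and in nitrate over control Trbc2 and Cd5.

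Genes outside the 36 were read from lists chosen by function. Of 25 other genes of T cell receptor signalling, 15 were tested, 2 rose and 0 fell with bleomycin, with a median of 0.10. The 2 were Icos, a costimulatory receptor (1.42 ± 0.31, adjusted p = 0.0296), and Sash3, a lymphocyte adaptor (1.09 ± 0.26, adjusted p = 0.0407). Icos was at 0.305, 0.503 and 0.201 FPKM in control, 1.29, 3.23 and 3.7 in bleomycin and 0.477, 1.37 and 0.368 in nitrate libraries. Bleomycin lay above control for it in every library. Icos reached 1 FPKM in no control library, so the count of 2 risen genes was partly fixed by the filter. Of 9 gamma delta T cell genes found under the symbols sought, 7 were tested and 0 were called, and their sum was 19.7 to 26.1 FPKM in control, 18.3 to 34 in bleomycin and 19.6 to 30.8 in nitrate libraries. With bleomycin 4 of the 7 estimates were above 0, Blk (0.92 ± 0.30, adjusted p = 0.098), Tcrg-C2 (0.83 ± 0.37, adjusted p = 0.199), Trdv4 (0.37 ± 0.54) and Tcrg-C1 (0.28 ± 0.32), and those below 0 included Tcrg-V5 and Sox13 (-0.10 ± 0.16). Tcrg-V5, a gamma chain variable gene used by dendritic epidermal T cells and named here after its values were seen, was at 2.49, 1.57 and 3.37 FPKM in control, 0.18, 0.677 and 1.16 in bleomycin and 1.28, 0 and 0.925 in nitrate libraries. Both treated groups lay below control in every library, and neither difference was called (-1.07 ± 0.36, adjusted p = 0.107 for bleomycin and -1.05 ± 0.36, adjusted p = 0.094 for nitrate).

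Summed levels of 7 lists of other leukocyte genes were higher in every bleomycin library than in any control library, while only some of their genes passed the test, where 4.74% of all genes tested rose. Of 5 pan-leukocyte genes all were tested and Cd52 rose with bleomycin (1.73 ± 0.33, adjusted p = 0.0188), and the sum of the 5 was 57.5 to 100.6 FPKM in control, 144.2 to 214.7 in bleomycin and 32.3 to 103.1 in nitrate libraries. Of 10 macrophage and monocyte genes 2 rose, and their sum was 429.7 to 644.6, 1031 to 1893 and 322.3 to 837.6 FPKM in the same order. The 4 tested of 6 neutrophil genes all rose (sums 9.75 to 30.1, 445.4 to 3199 and 20.4 to 180.6 FPKM). S100a8 and S100a9 (198 to 1389 and 231.9 to 1792 FPKM) made up most of the bleomycin sums. Csf3r and Cxcr2 rose too, and Ly6g had 0, 1 and 3 reads in control, bleomycin and nitrate. Of 8 mast cell genes 6 rose (58.2 to 107.8, 179.1 to 238.8 and 95.5 to 186 FPKM). Of 7 dendritic and Langerhans cell genes 4 were tested and 2 rose, Itgax and Ccr7 (sums 10.6 to 14, 18.5 to 27 and 9.52 to 18.9 FPKM). Zbtb46 was lower in every bleomycin library than in any control library, and not called (-0.51 ± 0.18, adjusted p = 0.118). Untested, Xcr1 had 103 reads in control and 70 in bleomycin, Clec9a 120 and 71, and Flt3 85 and 199. Of 15 natural killer and innate lymphoid genes 2 were tested and 0 called, with sums of 4.37 to 6.3, 9.67 to 15.1 and 2.14 to 5.08 FPKM. The chemokine gene Ccl5 carried the separation in this list, with 0.929 to 3.07, 5.11 to 9.16 and 0.164 to 2.33 FPKM, and without it the sums of control (2.55 to 4.68 FPKM) and bleomycin (3.83 to 5.94 FPKM) overlapped. Of 7 B cell genes 2 were tested and 1, Cd22, rose, with sums of 2.8 to 3.74, 6.11 to 10.8 and 3.99 to 6.69 FPKM. The defining B cell gene Ms4a1 was listed at 0 in all 3 control libraries and at most 0.0705 FPKM elsewhere. Cd22 reached 1 FPKM in the bleomycin libraries only (1.5, 1.45 and 2.2 FPKM). Cxcr2 and the mast cell gene Fcer1a also reached 1 FPKM in no control library. The counts of risen genes in these 3 lists were therefore partly fixed by the filter. The part of these cells in the values of the members was not tested.

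**Figure D5:**
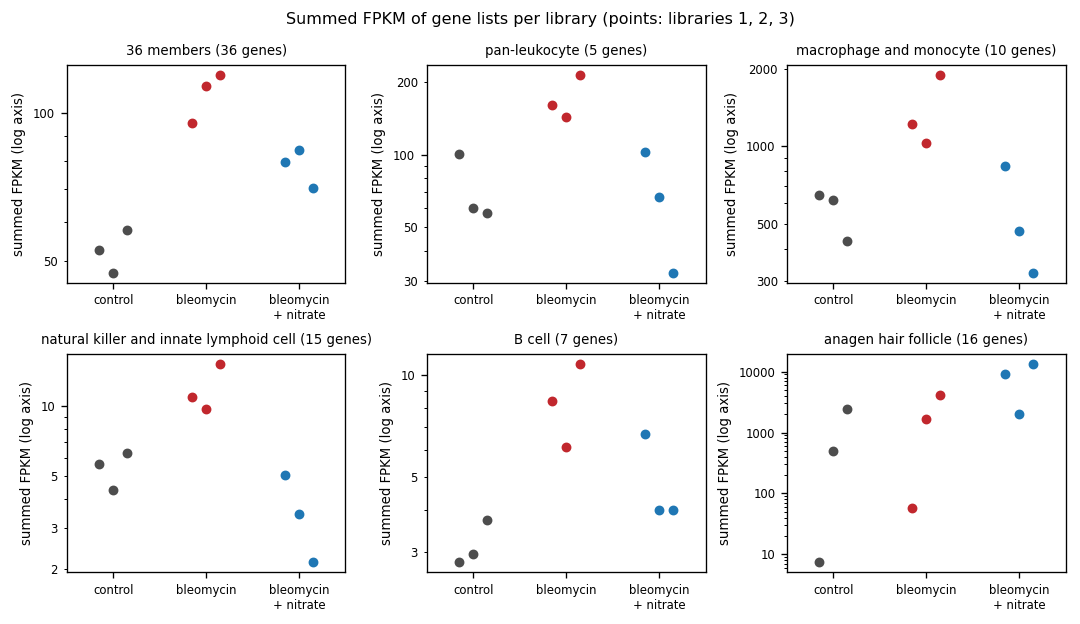
Summed FPKM of the 36 members and of 5 other lists in each library, on log axes, for control, bleomycin and nitrate. The members, pan-leukocyte, macrophage, natural killer and B cell sums of the bleomycin libraries lie above those of the control libraries, and hair follicle sums spread widely within each group. Without Ccl5 the natural killer sums of control and bleomycin overlap.

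The second comparison, nitrate with bleomycin skin, asks what nitrate changed when added to the drug. No member passed the test, and neither did any other gene: 0 of 14645 genes were called by limma and 0 by voom on recovered reads, or 0% of those tested, while 2624 genes and 9 of the 20 tested members had an unadjusted p under 0.05. The estimate was below 0 for 19 of the 20 tested members, with a median of -0.38 against -0.00 over all genes tested, and Tcf7 was the exception (0.49 ± 0.36). Of all 36 members, 11 were lower in every nitrate library than in any bleomycin library and 0 were higher, where 7.65% and 6.47% of the 32197 genes with a read were. The 11 were Cd4, Trac, Trbc2, Cd3d, Ubash3a, Themis, Cd6, Il2rb, Il2rg, Klrd1 and Gzmb. Of the 20 members that passed the filter, 6 were lower and 0 higher in this way, where 11.8% and 9.4% of 14645 genes were. This comparison shares the 3 bleomycin libraries with the first, so the values of the members in the pair of comparisons are not independent.

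Cd4 had the largest difference from bleomycin among the tested members, at 1.51 ± 0.589 against 5.02 ± 0.307 FPKM (SD, n = 3), and missed the threshold (-1.29 ± 0.20, adjusted p = 0.0628). Over 20 alternatives its adjusted p ranged from 0.0564 to 0.225. Il2rg was next (-1.17 ± 0.30, adjusted p = 0.132), with nitrate libraries at 4.15, 2.74 and 1.52 FPKM against 6.37, 6.84 and 8.55 in bleomycin. The lowest bleomycin library lay above the highest nitrate library for both genes. Trac (-0.94 ± 0.29, adjusted p = 0.158), Il2rb (-0.84 ± 0.22, adjusted p = 0.134) and Il7r (-0.78 ± 0.28, adjusted p = 0.204) followed, and Cd5 hardly differed (-0.06 ± 0.22, adjusted p = 0.92). The pan-leukocyte and macrophage sums given above were also lower in every nitrate library than in any bleomycin library, and the hair follicle estimates were all above 0 (16 of 16 genes, median 2.84, 0 called). Their part in the differences of the T cell genes was not tested.

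The third comparison, nitrate with control skin, asks what remained different from healthy skin with nitrate. Of the 20 tested members 2 were higher and 0 lower, where 8.53% of all genes tested were called, 3.63% higher and 4.9% lower, and the median of the 20 was 0.37 against 0.02. They were Trbc2 (0.92 ± 0.14, adjusted p = 0.0163), with nitrate at 18.8 ± 2.24 and control at 9.48 ± 0.982 FPKM (SD, n = 3), and Cd5 (1.08 ± 0.22, adjusted p = 0.0282), with 1.91 ± 0.587 and 0.379 ± 0.282 FPKM. The call of Trbc2 was lost without control 1 or 2 (adjusted p = 0.0603 and 0.0709), nitrate 3 (adjusted p = 0.058), or both control 1 and bleomycin 1 (adjusted p = 0.0777). That of Cd5 was lost without control 1, 2 or 3 (adjusted p = 0.0728, 0.0758 and 0.0534), nitrate 1 or 3 (adjusted p = 0.0596 and 0.0647), both control 1 and bleomycin 1 (adjusted p = 0.0943), or the filter (adjusted p = 0.0634), and with only the groups compared in the fit (adjusted p = 0.0647). The 2 became 0 without control 1, control 2 or nitrate 3, 1 without control 3, and 3 without nitrate 2. Of all 36 members, 9 were higher in every nitrate library than in any control library and 0 lower, where 10.5% and 9.92% of genes with a read were. These 9 were Trac, Trbc2, Cd8a, Lat, Txk, Cd5, Cd6, Il7r and Tcf7. Of the 20 members that passed the filter, 6 were higher and 0 lower in this way, where 17.3% and 17.5% of 14645 genes were. Cd4, Zap70, Lat, Cd2 and Cd5 reached 1 FPKM in no control library. Cd5 was among the 2 called, and Cd5 and Lat were among these 6. Both counts over the tested members were therefore partly fixed by the filter.

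Other members were not called between nitrate and control. Cd4 was at 0.834 to 1.88 FPKM in nitrate and 0.389 to 0.915 in control libraries, overlapping ranges (0.63 ± 0.20, adjusted p = 0.0827). Trac lay above control in every nitrate library (0.89 ± 0.29, adjusted p = 0.0812). Tcf7 had the largest estimate (1.32 ± 0.36, adjusted p = 0.0558) and was at 3.19, 3.13 and 6.42 FPKM in control, 4.91, 9.28 and 10.8 in bleomycin and 13.2, 7.44 and 15.7 in nitrate libraries. Its highest values were in nitrate 3 and nitrate 1, the libraries with the highest hair follicle sums, and the part of hair follicle content in Tcf7 was not tested. Tcf7 was called without nitrate 2 (adjusted p = 0.0237) and with sample weights (adjusted p = 0.036), and in 3 of 21 alternatives in all. The killing genes were on the low side, with all 5 estimates without the filter below 0 and none called. Cd7 lay below its control range in 2 of 3 nitrate libraries (4.18, 1.88 and 2.37 FPKM, -0.57 ± 0.21, adjusted p = 0.111), and it was called lower only without nitrate 1 (-0.81, adjusted p = 0.0362). Of other T cell receptor signalling genes 0 of 15 were called in this comparison and 0 in that of nitrate with bleomycin.

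Promoters of the members, whether or not they rose with bleomycin, were looked at for letters that lymphocyte transcription factors bind. RefSeq entries (GRCm38.p6, 250 bases before to 50 after the start) covered 22 of the 36 members with 28 promoters, and 3 of the 7 members that rose. The motifs searched were TGTGGT (Runx), AGGAAG (Ets) and CAGCTG (E-box), each on both strands, so that ACCACA and CTTCCT count as matches. The Runx letters were in 11 of 28 member promoters (39.3%) and in 16.8% of 32851 promoters of all genes, the Ets letters in 15 (53.6%) and 35.4%, and the E-box letters in 4 (14.3%) and 16.3%. The member shares are mostly from genes that were not called, and they count Lck, Tcf7, Themis, Txk and Zap70 more than once each. Whether the risen members differ from the others was not tested. The promoters of the risen members are printed on the strand of the gene, 5′ to 3′, with matches in capitals.
Cd5, chr19:10738925-10739224, minus strand: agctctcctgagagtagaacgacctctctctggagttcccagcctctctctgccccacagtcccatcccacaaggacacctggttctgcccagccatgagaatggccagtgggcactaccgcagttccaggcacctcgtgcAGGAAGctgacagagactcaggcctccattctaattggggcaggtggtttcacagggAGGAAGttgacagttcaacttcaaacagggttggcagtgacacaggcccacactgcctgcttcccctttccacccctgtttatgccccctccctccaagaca
Il7r, chr15:9529827-9530126, minus strand: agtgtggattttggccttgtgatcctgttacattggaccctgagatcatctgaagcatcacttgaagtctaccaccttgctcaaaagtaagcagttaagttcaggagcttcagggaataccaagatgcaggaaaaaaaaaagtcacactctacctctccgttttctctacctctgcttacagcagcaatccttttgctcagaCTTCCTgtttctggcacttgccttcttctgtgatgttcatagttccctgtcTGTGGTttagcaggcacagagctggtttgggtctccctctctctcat
Lat, chr7:126369519-126369818, minus strand: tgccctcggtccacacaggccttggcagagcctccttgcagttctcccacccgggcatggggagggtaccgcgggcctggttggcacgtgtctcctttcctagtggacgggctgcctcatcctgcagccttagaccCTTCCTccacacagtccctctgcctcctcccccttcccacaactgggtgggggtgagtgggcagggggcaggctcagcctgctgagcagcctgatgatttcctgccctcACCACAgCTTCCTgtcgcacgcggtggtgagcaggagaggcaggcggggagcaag
Cd5 held 2 Ets matches, Lat held 2 Ets matches and 1 Runx match, and Il7r held 1 of each. A match describes these letters only, and binding was not measured.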

How the data were processed

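RNA from mouse skin biopsies was sequenced in 9 libraries, grouped by their titles into control, bleomycin and nitrate, 3 each. Per the labels' protocols, SMARTer mRNA libraries were made from total RNA, and the build was mm10 per the submitters' processing notes. The sources used here did not state the aligner, the counter or the use of strand. The deposited table gives FPKM for 54532 genes. Reads were recovered from it, since FPKM times gene length came in whole steps for 100% of values (tolerance 0.01), 15804050 to 18352592 per library. The authors' library size was 0.916 to 1.09 times these totals. A count of 0 allows up to 3 reads by counting error alone.

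Genes with at least 1 FPKM in at least 3 libraries (14645) entered limma 3.58.1 (R 4.3.3) as log2(FPKM + 1), in 1 fit of 3 group means, eBayes with trend and robust, two-sided, with Benjamini-Hochberg adjusted p under 0.05 as the call. The 36 members and the lists were chosen with earlier results of these data known. All members could be named, with values in every library for receptor chains, coreceptors, killing genes and called members. Alternatives were other pseudocounts, filters, scalings and fits, voom on recovered reads, a replicate block, sample weights, and fits leaving out libraries. Voom on genes with a mean of at least 10 reads was added after the data were seen. Same-numbered libraries deviated together (r over 0.1) in 5 of 9 pairs, which neither shows nor excludes pairing. The main fit did not pair them. Sequences were read from GENCODE M21 and RefSeq tables, and figures were drawn with matplotlib 3.10.9.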

Additional observations from a re-analysis of the deposited data

How the results depend on the processing

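Of 1212 values of single members under 21 alternatives, 1167 kept their side of the threshold, 40 lost a call, 5 gained one and 0 reversed, and 25 estimates of uncalled members changed sign. Genes called between bleomycin and control numbered 1234, against 676 without a filter, 747 with a mean FPKM of at least 5, 1947 with sample weights and 137 without both control 1 and bleomycin 1, and 334 to 1539 when each library was left out. Called members numbered 7, against 1 of the 4 tested with a mean FPKM of at least 5, 2 without both control 1 and bleomycin 1, and 3 to 7 when each library was left out. Between nitrate and bleomycin 0 genes were called, against 10 with the replicate block and 0 to 37 when each library was left out, and 0 members in every alternative. Between nitrate and control 1249 genes were called, against 294 without a filter, 306 with only the groups compared, 2085 with sample weights, 23 without both libraries, and 45 to 2882 when each library was left out. Called members numbered 2, against 1 without a filter, 1 with a mean FPKM of at least 5, 1 with only the groups compared, 4 with sample weights, 0 without both libraries, and 0 to 3 when each library was left out. Where a fit left out libraries it had fewer samples, and otherwise the cause was not tested. The calls gained with sample weights were Cd4 (0.70, adjusted p = 0.0411) and Tcf7 (1.38, adjusted p = 0.036). The replicate block called Tcf7 in nitrate over control (1.32, adjusted p = 0.0417), 3 members in all, and kept 7 members in bleomycin over control. Same-numbered libraries correlated at -0.391 to 0.517 in their deviations, and 5 of 9 libraries correlated best with their own number. Low levels limit the members most: 16 of the 36 could not be tested with the filter, so a change in them could be missed.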
